A study of Mus musculus with 22 samples.

Results

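Of the 6376 domain boundaries in the deposited table, 441 (6.92%) lay at an anchor of a loop between cis-regulatory elements (CREs, which are promoters and enhancers) and away from every anchor of a CTCF loop. A boundary was counted as such a CRE-anchor boundary when the midpoint of its 10 kb bin was at most 20 kb from the midpoint of a CRE loop anchor on the same chromosome, and when no anchor of a structural or dual-function loop was that close. By the authors' categories, a CRE loop has CREs at both anchors and CTCF with cohesin at no more than 1 of them, a structural loop has CTCF with cohesin at both anchors and CREs at no more than 1, and a dual-function loop has both kinds of site at both anchors. A CRE loop can therefore still hold CTCF at 1 anchor, and CTCF binding was not analysed here. The choice used positions and loop categories only, so no boundary strength entered it. The remaining boundaries comprised 1205 at dual-function anchors, 1014 at structural anchors only, 241 at structural and CRE anchors, 251 at uncategorised loop anchors only, and 3224 at no anchor. Below, "CTCF loop anchor" stands for an anchor of a structural or dual-function loop.

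The maps come from in situ Hi-C of G1E-ER4 cells, a subline of the GATA1-null mouse proerythroblast line G1E. In all cells used, -auxin controls included, both CTCF alleles carried a C-terminal AID-mCherry fusion and the cells expressed OsTiR, so that auxin leads to degradation of CTCF. Cells were arrested in prometaphase with 200 ng/ml nocodazole for 7 to 8.5 h, with or without auxin in the last part of the arrest and after release, and were sorted by FACS as prometaphase cells at 0 min, ana/telophase cells at 30 min, early-G1 cells at 60 min, or mid-G1 cells at 120 min. For ana/telophase the sample labels and the methods of the paper give 30 min, and the protocol text of the samples gives 25 min. The sorting gates used mCherry, which reports the fused CTCF, and ana/telophase cells carried a GFP reporter with a mitotic degron. The 18 libraries used cover 8 conditions, with 3 libraries in each mid-G1 condition and 2 in the others, and the 4 libraries from cells given triptolide were left out. The authors merged the libraries of a condition before measuring boundaries, so in the tables used here each boundary has 1 value in each of 8 maps and no replicate error, and no test between treatments was made. Maps of single libraries were not analysed here. The tables do not give the contacts behind a value, so its depth is unknown here. The value after ± is an SD over the medians of single chromosomes or, for the percent regained, over the percent of single chromosomes. It covers the chromosomes that hold such boundaries, at most 20, and is a spread between chromosomes and not between cultures.

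Domain boundaries are places where contacts between the sequences on either side are depleted. Many are held by CTCF, which stops cohesin while it extrudes a loop of chromatin, and others lie at active promoters or where active chromatin meets repressed chromatin. Most boundaries are lost in mitosis and form again while cells enter G1. Contacts between promoters and enhancers can form without CTCF at both ends.

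Sequence is shown first for the 3 promoters that lie inside the bin of a boundary described below. Promoters run from 250 bases before the transcription start to 25 bases from it, 5′ to 3′, on NCBIM37 (mm9), with the transcribed bases in capitals. Olfr701, an olfactory receptor gene, and Oas1e, of the antiviral 2'-5' oligoadenylate synthetase family, were in bins with low strength in +auxin cells, and Gm16532 was in a bin with a higher strength in +auxin than in -auxin cells.
Olfr701, at a boundary weaker in +auxin cells, chr7:113957393-113957667, plus strand: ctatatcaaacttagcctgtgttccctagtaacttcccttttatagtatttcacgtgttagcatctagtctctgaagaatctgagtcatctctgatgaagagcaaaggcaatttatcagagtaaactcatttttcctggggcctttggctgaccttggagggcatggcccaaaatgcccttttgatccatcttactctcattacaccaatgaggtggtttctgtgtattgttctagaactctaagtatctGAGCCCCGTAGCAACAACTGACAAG
Oas1e, at a boundary weaker in +auxin cells, chr5:121245515-121245789, minus strand: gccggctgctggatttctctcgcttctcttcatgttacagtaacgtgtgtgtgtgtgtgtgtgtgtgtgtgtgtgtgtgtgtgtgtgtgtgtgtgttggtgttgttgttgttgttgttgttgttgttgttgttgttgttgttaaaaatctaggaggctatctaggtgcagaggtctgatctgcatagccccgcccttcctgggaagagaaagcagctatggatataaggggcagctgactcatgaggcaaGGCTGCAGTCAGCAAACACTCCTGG
Gm16532, at a boundary stronger in +auxin cells, chr7:6351175-6351449, plus strand: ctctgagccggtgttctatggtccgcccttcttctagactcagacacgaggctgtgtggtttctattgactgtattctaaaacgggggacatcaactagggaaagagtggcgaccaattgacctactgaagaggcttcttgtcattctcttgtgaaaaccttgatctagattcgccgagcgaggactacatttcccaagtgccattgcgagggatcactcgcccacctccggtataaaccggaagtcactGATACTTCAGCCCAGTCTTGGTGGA
The Olfr701 window held 2 CpG dinucleotides in 275 bases, the Oas1e window 4 and the Gm16532 window 12.

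A second set shows matches to part of the CTCF motif. Bins were searched on both strands for the core AGGGGGCGC, which is 9 of the letters of the longer CTCF consensus, and 15 of 441 bins (3.40%, 95% Wilson interval 2.07 to 5.54%) held 17 matches, against 3.22% of all boundary bins. These 4 matches, each 30 bases with the core in capitals, come from the described boundary between Arf6 and Nemf and from the bins with the lowest and the highest mid-G1 change among the 15, which were chosen after their values were seen.
between Arf6 and Nemf, chr12:70465080-70465109, plus strand: ccgctaggcggctggAGGGGGCGCagagtt
bin with the lowest change, chr8:122637923-122637952, minus strand: gagttgtcagtcaacAGGGGGCGCcacgcc
bin with the highest change, chr8:98012797-98012826, minus strand: gtccccccgcactgtAGGGGGCGCtgtggg
bin with the highest change, another match, chr8:98018178-98018207, minus strand: cttttttggggggggAGGGGGCGCgtgggg
The bin between Arf6 and Nemf had a mid-G1 strength of 1.88 in -auxin and 1.25 in +auxin cells, the bin with the lowest change 1.38 and 0.636, and the bin with the highest change 0.571 and 0.838. Of the 15 bins, 11 were weaker by any amount in mid-G1 +auxin cells, beside 64.2% of all CRE-anchor boundaries and 75.5% of all boundaries.

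Boundary strength, ΔIS, is the highest insulation score within 120 kb of a boundary minus the score at the boundary, both unlogged, so a higher value is a sharper boundary. CRE-anchor boundaries were weak in prometaphase and strong in G1, with or without CTCF. From prometaphase through ana/telophase and early-G1 to mid-G1, their median strength in -auxin cells was 0.126 ± 0.022, 0.386 ± 0.060, 0.589 ± 0.092 and 0.667 ± 0.109 (n = 441). In +auxin cells the medians were 0.111 ± 0.015, 0.330 ± 0.060, 0.533 ± 0.080 and 0.566 ± 0.105. At the 3 post-mitotic stages the difference between the treatments was smaller than the SD over chromosomes of either treatment. The same boundaries are in both treatments, so that SD of the levels is no error of the difference. The paired changes, given below, had a mid-G1 median below 0 on 20 of 20 chromosomes. At boundaries at structural anchors only, median strength in mid-G1 was 0.753 ± 0.100 in -auxin and 0.397 ± 0.091 in +auxin cells, and at dual-function anchors it was 0.988 ± 0.081 and 0.618 ± 0.079. In -auxin mid-G1 cells the CRE-anchor boundaries were thus the weakest of these 3 kinds, and in +auxin cells their median lay between those of the other kinds.

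**Figure D1:**
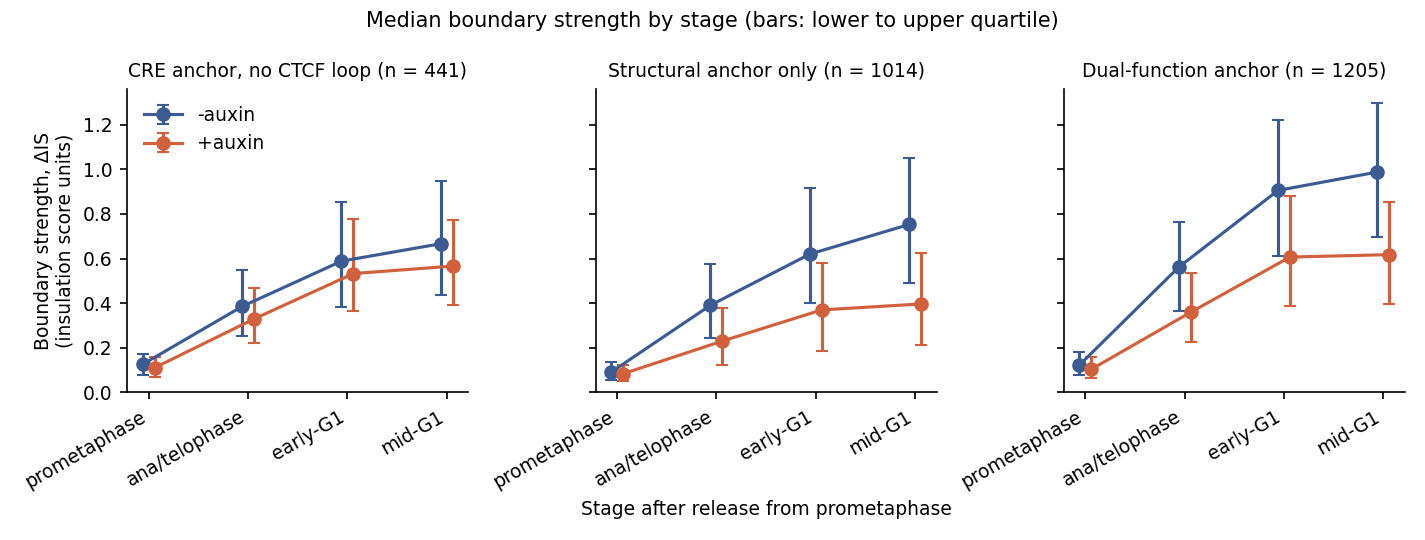
Median boundary strength (ΔIS, in units of the insulation score) at 4 stages after release, for CRE-anchor boundaries (441), boundaries at structural anchors only (1014) and at dual-function anchors (1205); points are medians and bars run from the lower to the upper quartile. At CRE-anchor boundaries the -auxin and +auxin medians stay close (0.667 and 0.566 in mid-G1), while at structural anchors they are 0.753 and 0.397.

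Changes are log2(+auxin / -auxin) of the strength, without a pseudocount. In the same order of stages, the median change of CRE-anchor boundaries was -0.11 ± 0.22, -0.20 ± 0.10, -0.09 ± 0.12 and -0.19 ± 0.12. Over all boundaries the medians were -0.09 ± 0.06, -0.35 ± 0.05, -0.34 ± 0.06 and -0.48 ± 0.06. In prometaphase, where boundaries are at their weakest, the medians differed by less than the SD over chromosomes, and at the 3 later stages the CRE-anchor boundaries had the median nearer to 0. Set against the median of all boundaries rather than against no change, the CRE-anchor medians turn positive at these stages, at 0.15, 0.25 and 0.29. With a window of 10 kb in place of 20 kb the early-G1 and mid-G1 medians were -0.19 and -0.31, and with 40 kb the early-G1 median was -0.04. Mid-G1 medians of the other kinds were -0.89 ± 0.17 at structural anchors only, -0.68 ± 0.11 at dual-function anchors, -0.62 ± 0.17 at structural and CRE anchors, -0.30 ± 0.31 at uncategorised anchors and -0.29 ± 0.08 at no anchor. The CRE-anchor median differed from those of the last 2 kinds by less than its SD. The mid-G1 median of CRE-anchor boundaries was below 0 on 20 of 20 chromosomes, from -0.42 on chromosome X to -0.01 on chromosome 10, with 11 to 35 boundaries per chromosome. On all 20 it was nearer to 0 than the median of all boundaries of the chromosome, and than that of structural anchors only.

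In mid-G1, 100 of 441 CRE-anchor boundaries (22.7%, 95% Wilson interval 19.0 to 26.8%) were at least 1.5-fold weaker in +auxin cells, against 44.5% of all boundaries. Those at least 1.5-fold stronger numbered 48 (10.9%, 8.31 to 14.1%), against 8.64% of all boundaries, and that background lies inside the interval. With changes centred on the median of all boundaries, 8.39% were at least 1.5-fold weaker and 25.6% stronger. Centred shares are relative to that median, which is itself below 0, and not to no change. Without centring the weaker direction was the commoner. These intervals cover counting error only. At least 2-fold weaker were 41 (9.30%, against 25.5%), and at least 2-fold stronger 23 (5.22%, against 4.47%). At structural anchors only, 68.1% of boundaries were at least 1.5-fold weaker and 1.78% at least 1.5-fold stronger. In early-G1 83 CRE-anchor boundaries were at least 1.5-fold weaker (18.8%, against 37.0%) and 49 stronger (11.1%, against 11.1%), and in ana/telophase 83 were weaker (18.8%, against 35.9%) and 39 stronger (8.84%, against 11.0%). In prometaphase 117 were weaker (26.5%, against 29.3%) and 71 stronger (16.1%, against 22.4%), which shows how wide single changes are where both strengths are near their lowest. Past 1.5-fold in the same direction at all 3 post-mitotic stages were 49 weaker CRE-anchor boundaries (11.1%, against 22.7%) and 25 stronger ones (5.67%, 3.87 to 8.23%, against 2.15%). At no anchor 9.80% were weaker and 2.42% stronger in this way. Stronger in this way were also 3.59% (1.90 to 6.67%) at uncategorised anchors, 1.66% at structural and CRE anchors, 1.24% at dual-function anchors and 0.592% at structural anchors only. The share that was weaker by any amount in mid-G1 was 64.2% (283 of 441) at CRE-anchor boundaries and 75.5% over all boundaries. At the post-mitotic stages the share at least 1.5-fold weaker thus lay below the background share. The share that was stronger lay close to its background except where all 3 stages had to pass. Boundaries and loops were called in both treatments, so a boundary of low -auxin strength may be listed through the +auxin maps. Nothing is therefore read from that exception.

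**Figure D2:**
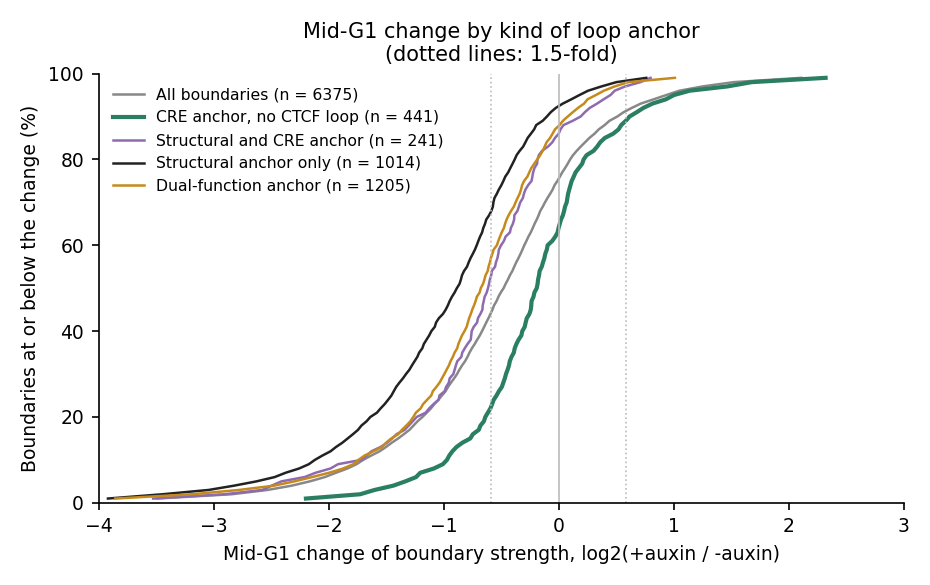
Share of boundaries (%) at or below each mid-G1 change, log2(+auxin / -auxin) of boundary strength, by the kind of loop anchor within 20 kb; dotted lines mark 1.5-fold. The curve of the 441 CRE-anchor boundaries lies to the right of the others around and below a change of 0 and crosses 50% at -0.19, against -0.48 for all boundaries and -0.89 for structural anchors only.

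Because strong boundaries can lose more than weak ones, changes were also read among boundaries of like strength. The -auxin early-G1 map set the strength classes, since the -auxin mid-G1 map is itself the lower part of the mid-G1 ratio. Among boundaries with an early-G1 strength from 0.3 to 0.6, the median mid-G1 change was -0.13 ± 0.21 at CRE anchors (n = 167), -0.96 ± 0.22 at structural anchors only (n = 316) and -0.24 ± 0.13 at no anchor (n = 632). From 0.6 to 0.9 these medians were -0.24 ± 0.21 (n = 112), -0.81 ± 0.25 and -0.32 ± 0.24, and from 0.9 up they were -0.44 ± 0.17 (n = 99), -0.85 ± 0.23 and -0.51 ± 0.20. In each of these classes the CRE-anchor boundaries had a change nearer to 0 than those at structural anchors, and differed from those at no anchor by less than the SD over chromosomes. Within the CRE-anchor boundaries the median was lower in each stronger class. The 63 CRE-anchor boundaries with an early-G1 strength under 0.3 had a median change of 0.52 ± 0.40, and 47.6% of them were at least 1.5-fold stronger in +auxin mid-G1 cells. Of boundaries of that strength, 17.8% were at least 1.5-fold stronger at no anchor, which holds nearly all of the cluster5 boundaries described below, 24.6% at uncategorised anchors, 26.0% at dual-function anchors, 5.62% at structural anchors only and 0% of 13 at structural and CRE anchors. The authors called boundaries and loops in both treatments, so a boundary of low -auxin strength may be listed through the +auxin maps, which favours a positive change in this class, and nothing is read from it. The early-G1 and mid-G1 maps come from separate libraries, but the authors placed boundaries at the local minimum of insulation of -auxin mid-G1 cells, and the part of that placement in the changes was not tested.

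Changes of single boundaries were much the same in both G1 maps. Across the 441 CRE-anchor boundaries the mid-G1 change had a Spearman correlation of 0.86 with the early-G1 change, 0.72 with that in ana/telophase and 0.16 with that in prometaphase. These are descriptions over boundaries of the same maps, which share the cell line and the balancing. Over all 6375 boundaries with a ratio the values were 0.64, 0.53 and 0.07, and with the early-G1 change they were 0.84 to 0.92 in the other kinds at a loop anchor and 0.38 at no anchor. Of the 100 CRE-anchor boundaries at least 1.5-fold weaker in mid-G1, 69 were past 1.5-fold in early-G1 and 56 in ana/telophase, and 96 and 95 were weaker by any amount. Over all boundaries at least 1.5-fold weaker in mid-G1, 67.3% and 61.9% were past 1.5-fold at those stages. For the weaker ones these shares were 78.5% and 75.8% at dual-function anchors, 82.1% and 76.0% at structural anchors only, and 49.5% and 43.7% at no anchor. Of the 48 that were at least 1.5-fold stronger, 35 and 26 were past 1.5-fold at those stages, and 48 and 42 were stronger by any amount. Of all such boundaries 50.5% and 39.7% were past 1.5-fold. The shares were 81.5% and 55.6% at dual-function anchors, 66.7% and 38.9% at structural anchors only, 66.7% and 55.6% at uncategorised anchors, and 44.4% and 36.3% at no anchor.

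The authors sorted boundaries into 5 clusters by k-means on z-scores of the post-mitotic strengths in these same maps, so the shares below restate the strengths by another route. Cluster3, whose mid-G1 strengths differed little between treatments, held 225 CRE-anchor boundaries (51.0%, 46.4 to 55.7%) and 27.1% of all boundaries. Within it the CRE-anchor boundaries had a median strength of 0.655 in -auxin and 0.664 in +auxin mid-G1 cells. Cluster2 held 140 (31.7%), with medians of 0.852 and 0.550, against 31.9% of all boundaries. Cluster1, with the largest loss, held 28 (6.35%, 4.43 to 9.02%), with medians of 0.719 and 0.289, against 20.4% of all boundaries and 33.4% of those at structural anchors only. With a window of 10 kb its share was 9.64%, and with 40 kb 4.23%. Cluster4 held 48 (10.9%), with medians of 0.246 and 0.486, against 9.25% of all boundaries. No CRE-anchor boundary was in cluster5, which the authors treat as mostly spurious, and 0 of 441 allows a share of up to 0.680% by the limit of 3 counts, against 11.3% of all boundaries. The same held at other anchors of categorised loops, with 0 of 1014 boundaries at structural anchors only, 0 of 241 at structural and CRE anchors and 1 of 1205 at dual-function anchors, while 708 of the 719 boundaries of cluster5 were at no anchor.

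Re-formation was compared by the rise of the mean strength above its prometaphase value, in percent of the rise reached by mid-G1. CRE-anchor boundaries had regained 49.9 ± 6.76% by ana/telophase and 89.1 ± 4.41% by early-G1 in -auxin cells. In +auxin cells they had regained 50.3 ± 6.04% and 97.6 ± 6.33%. The ana/telophase values differed by less than the SD over chromosomes, and the early-G1 value was higher in +auxin cells by more than either SD. All boundaries gave the same order, with 86.7 ± 2.52% in -auxin and 95.7 ± 2.56% in +auxin cells by early-G1. Because the +auxin value is measured against a lower mid-G1 strength, it does not mean a stronger boundary in early-G1. From early-G1 to mid-G1, strength went up at 318 CRE-anchor boundaries (72.1%) in -auxin and at 246 (55.8%) in +auxin cells, close to the 72.8% and 57.0% of all boundaries. From prometaphase to ana/telophase it went up at 418 (94.8%) and 426 (96.6%), against 83.7% and 81.6% of all boundaries, and the median ratio of mid-G1 to prometaphase strength was 5.48 in -auxin and 5.21 in +auxin cells, against 5.01 and 3.63 over all boundaries. In -auxin cells this ratio was lower than at structural anchors only (8.04), dual-function anchors (7.75) and structural and CRE anchors (7.43), close to that at uncategorised anchors (5.49) and higher than at no anchor (2.73). In +auxin cells the ratio was 4.63, 5.52, 4.83, 4.25 and 2.20 at these kinds in the same order.

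Grouped by the distance to the nearest CTCF loop anchor, the lowest median change was where that anchor lay just beyond the window. The nearest CTCF loop anchor was 22.5 to 50 kb away at 172 CRE-anchor boundaries, whose median mid-G1 change was -0.44 ± 0.19 and of which 36.0% were at least 1.5-fold weaker. At over 50 to 100 kb (97 boundaries) the median was -0.15 ± 0.17, at over 100 to 200 kb (82) it was 0.05 ± 0.40, and at over 200 kb (90) it was -0.14 ± 0.36. Boundaries nearest to a CTCF loop anchor were also the strongest in -auxin mid-G1 cells, with a median of 0.808 against 0.501 at over 100 to 200 kb. Without those 172 boundaries the medians of the remaining 269 at the 3 post-mitotic stages were -0.08, 0.03 and -0.10, so that the early-G1 median changed sign. The share at least 1.5-fold weaker in mid-G1 was then 14.1%, and the share at least 1.5-fold stronger was also 14.1%.

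Just inside and just outside the window the values were close, both for CRE anchors and for CTCF loop anchors. The 162 CRE-anchor boundaries with the CRE anchor at 17.5 to 20 kb had a median mid-G1 change of -0.19, and the 147 boundaries with the nearest CRE anchor at 22.5 to 30 kb and no CTCF loop anchor within 20 kb had -0.21. The 80 CRE-anchor boundaries with a CTCF loop anchor at 22.5 to 30 kb had -0.56, and 177 boundaries near a CRE anchor with the nearest CTCF loop anchor at 17.5 to 20 kb had -0.53. The distance to the CRE anchor itself made little difference. The medians were -0.21 ± 0.19 at up to 2.5 kb (100 boundaries), -0.19 ± 0.19 at 7.5 to 12.5 kb (179) and -0.19 ± 0.18 at 17.5 to 20 kb.

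Structural loops that reach over a boundary can hold both of its sides in 1 loop. Of the CRE-anchor boundaries, 284 were spanned by no structural loop, 79 by 1 and 78 by 2 or more. Their median mid-G1 changes were -0.24 ± 0.13, -0.18 ± 0.27 and 0.05 ± 0.58, and their median -auxin strengths 0.717, 0.721 and 0.496. At least 1.5-fold stronger in +auxin cells were 7.75%, 8.86% and 24.4% of them. The medians differ by less than the SD of the last group, which has few boundaries per chromosome. Its weaker -auxin strength moves with its change, and the part of either in the other was not tested.

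**Figure D3:**
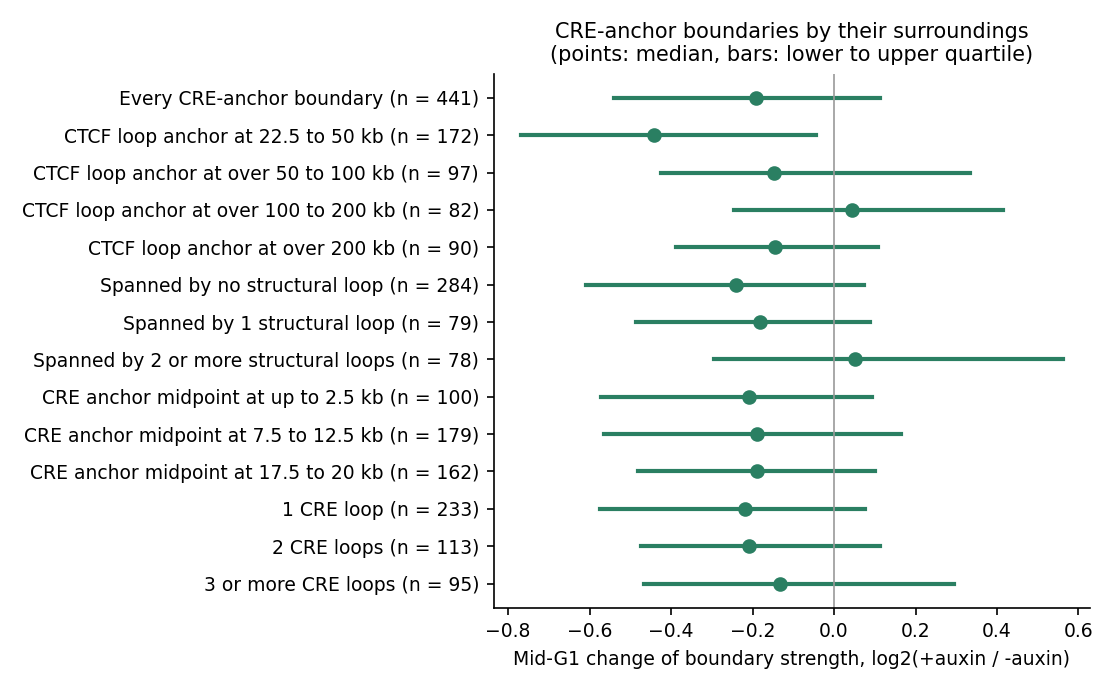
Mid-G1 change, log2(+auxin / -auxin) of boundary strength, of CRE-anchor boundaries by the distance to the nearest CTCF loop anchor, the number of structural loops that span the boundary, the distance to the CRE anchor and the number of CRE loops; points are medians and bars run from the lower to the upper quartile. The median is lowest where a CTCF loop anchor is 22.5 to 50 kb away (-0.44) and slightly above 0 at over 100 to 200 kb and under 2 or more structural loops (both 0.05).

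The CRE loops at these boundaries numbered 776, of which 29 had an anchor at a CRE-anchor boundary on both ends. Loop strength is the ratio of observed to locally expected contacts. The loops had a median strength of 1.61 in -auxin and 1.67 in +auxin mid-G1 cells, a median log2 change of 0.04 ± 0.08, against -0.02 ± 0.04 over all 4642 CRE loops. Of them 327 (42.1%) were called in -auxin maps only, 258 (33.2%) in +auxin maps only and 191 (24.6%) in both, against 44.5%, 30.4% and 25.2% of all CRE loops. The change of a boundary and the mean mid-G1 change of its CRE loops were weakly related, with a Spearman correlation of 0.09 over 441 boundaries whose values come from the same maps. Boundaries whose loops were all called in -auxin maps only (138) had a median change of -0.25 ± 0.27, those with all loops called in +auxin maps only (95) -0.27 ± 0.45, and those with all loops called in both (60) -0.04 ± 0.36. These medians, for boundaries that lost, gained or kept their loop calls, differ by less than their SDs. Most boundaries had 1 CRE loop (233) or 2 (113), and 95 had 3 to 7. Their median changes were -0.22 ± 0.17, -0.21 ± 0.21 and -0.13 ± 0.31. At 607 of the 805 pairs of a boundary and a loop (75.4%) the other end of the loop lay near no boundary. It lay near a boundary at a dual-function anchor in 93 pairs, a CRE-anchor boundary in 58 and a boundary at structural and CRE anchors in 47, and a CRE anchor permits no other kind. A protein-coding transcription start was within 20 kb of the other end in 654 pairs (81.2%).

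CRE-anchor boundaries lay among genes. A protein-coding transcription start of the GENCODE vM1 models was inside the bin at 102 of 441 boundaries (23.1%, 19.4 to 27.3%), against 14.8% of all boundaries, 13.2% at structural anchors only and 29.9% at dual-function anchors. Within 20 kb of the midpoint a start was found at 359 (81.4%), against 42.9% of all boundaries, 74.8% at dual-function anchors and 70.5% at structural and CRE anchors, and a CRE is often a promoter, so the rule itself favours this. The starts were denser beside the bin than in it. There were 25.4 plus-strand and 21.3 minus-strand starts per 100 CRE-anchor boundaries in the bin, 31.7 and 42.2 in the 10 kb to the left, and 44.2 and 35.6 in the 10 kb to the right, with transcript models of a gene that start at different bases counted separately. At structural and CRE anchors starts dipped in the bin too, with 20.7 plus and 25.3 minus, against 30.3 and 35.7 to the left and 28.6 and 31.1 to the right. At CRE-anchor boundaries minus-strand starts were the more frequent on the left and plus-strand starts on the right. That is the order of genes that point away from the boundary. All boundaries had the same order, with 15.3 plus and 16.9 minus on the left and 16.6 and 15.7 on the right. At 186 CRE-anchor boundaries with a start within 50 kb on both sides, however, the nearest starts pointed apart at 39 (21.0%, 15.7 to 27.4%), towards each other at 44 (23.7%) and the same way at 103 (55.4%), against 17.0%, 23.1% and 59.9% over all boundaries. With a start in the bin the median mid-G1 change was -0.20 ± 0.24, and without one -0.19 ± 0.14.

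**Figure D4:**
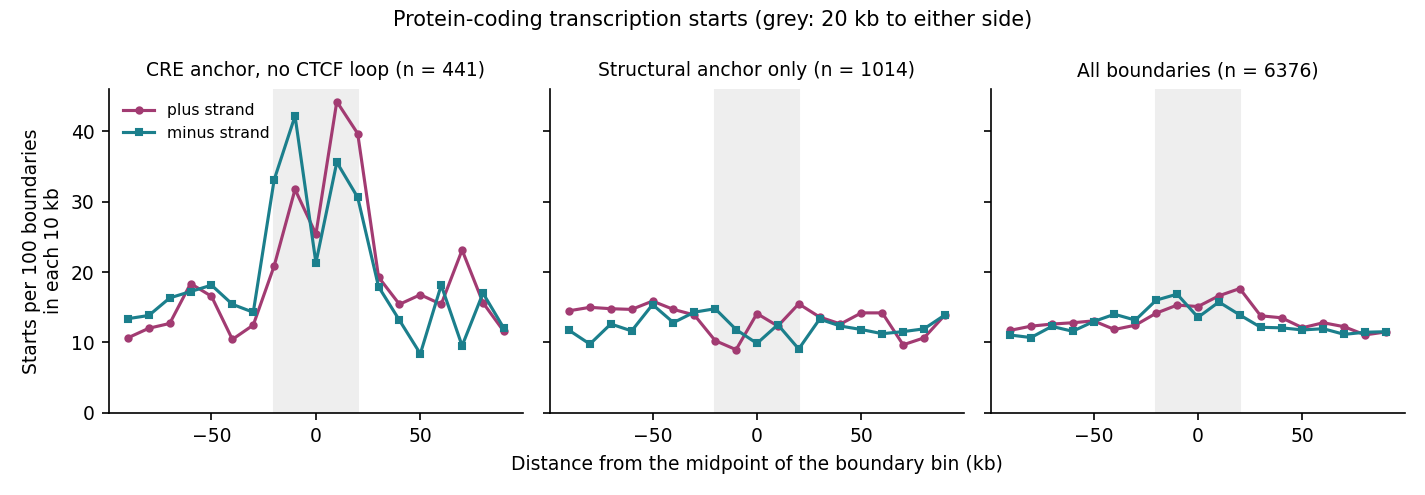
Protein-coding transcription starts per 100 boundaries in 10 kb steps of distance (kb) from the midpoint of the boundary bin, by strand, for CRE-anchor boundaries (441), boundaries at structural anchors only (1014) and all boundaries (6376); grey marks 20 kb to either side, the window of the rule. At CRE-anchor boundaries starts dip in the bin (25.4 plus and 21.3 minus per 100) between flanking peaks of up to 44.2.

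The genes beside these boundaries were also set against a list of erythroid genes. Of the list of 48 erythroid regulators, haem and globin genes, membrane skeleton genes and signalling targets, 47 were found in the gene models under their current or an older name. A boundary was within 20 kb of the start of 10 of them, and 0 of these were CRE-anchor boundaries, while all 10, among them Gata2, Myb, Myc and Runx1, were at dual-function anchors. Of the 2735 boundaries with any protein-coding start that close, 359 were CRE-anchor boundaries and 901 were at dual-function anchors. With 10 genes, a count of 0 is too few to read a difference from the CRE-anchor share. The 10 at dual-function anchors were not tested against their share, and the list was chosen with earlier results of these data known. In base composition the CRE-anchor bins (median GC content 42.9%, 9.60 CpG per kb) lay between those at no anchor (40.5%, 6.60) and those at dual-function anchors (46.1%, 12.3). The core of the CTCF motif printed above was in 3.40% of CRE-anchor bins, 3.22% of all boundary bins, 4.73% at structural anchors only, 5.98% at dual-function anchors and 1.55% at no anchor. With 1 position left free (AGNGGGCGC) it was in 9.07% of CRE-anchor bins and 8.39% of all bins. The 15 CRE-anchor bins with the core had a median mid-G1 change of -0.34 ± 0.32, and those without it -0.19 ± 0.12, a difference within the SD. A match is a string of letters and not a bound site.

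The 6 strongest CRE-anchor boundaries in -auxin mid-G1 cells were chosen by that value, and all 6 reached at least 0.975 in +auxin mid-G1 cells. The strongest was chr3:32650001-32660000, over exons of Ndufb5, which encodes a subunit of respiratory complex I, with the start of Mrpl47, a mitochondrial ribosomal protein gene, close by. Its strength was 0.164, 1.38, 2.06 and 2.27 in -auxin and 0.140, 1.21, 1.83 and 2.00 in +auxin cells, from prometaphase to mid-G1. The treatments were close at every stage, with a mid-G1 change of -0.18. At chr7:135890001-135900000, over exons of Sec23ip, whose product works at sites of export from the endoplasmic reticulum, strength was 0.0993, 1.06, 1.95 and 1.90 in -auxin and 0.0677, 0.982, 1.76 and 1.67 in +auxin cells. This boundary too was nearly as strong in +auxin cells. At chr11:87230001-87240000, in an intron of Tex14, a gene of germ cell bridges, with the start of the recombination gene Rad51c nearby, strength was 0.376, 0.950, 1.68 and 1.86 in -auxin and 0.367, 0.759, 1.47 and 1.44 in +auxin cells. At chrX:138790001-138800000, over exons of Acsl4, which activates long-chain fatty acids, it was 0.153, 1.11, 1.68 and 1.85 in -auxin and 0.154, 0.749, 1.45 and 1.43 in +auxin cells. These 2 were lower in +auxin cells at the 3 post-mitotic stages and equal within 0.01 in prometaphase. Centred on the median of all boundaries, the mid-G1 changes at Ndufb5, Sec23ip, Tex14 and Acsl4 turn positive, at 0.30, 0.29, 0.11 and 0.10. The largest loss of the 6 was at chr12:82050001-82060000, over exons of the splicing factor gene Srsf5 and the bile acid transporter gene Slc10a1, where strength was 0.191, 1.07, 1.66 and 1.91 in -auxin and 0.140, 0.665, 1.10 and 0.975 in +auxin cells. Its mid-G1 change was -0.97, and its nearest CTCF loop anchor was 30.0 kb away. The boundaries at Tex14 and Acsl4 had that same distance, with changes of -0.37 and -0.38.

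The boundaries with the most CRE loops were all somewhat weaker in mid-G1 +auxin cells, with changes from -0.66 to -0.35, beside 64.2% of CRE-anchor boundaries and 75.5% of all boundaries weaker by any amount. Centred on the median of all boundaries, the changes at Polr1b and near Zfp64 turn positive, at 0.13 and 0.011. At chr6:136740001-136750000, next to the starts of the histone genes H2afj and Hist4h4, 7 CRE loops met, 6 of them called in both treatments, and 1 reached 1880 kb to Cdkn1b, which encodes a cell cycle inhibitor. Strength there was 0.394, 1.09, 1.60 and 1.60 in -auxin and 0.369, 0.882, 1.11 and 1.13 in +auxin cells, while the loop to Cdkn1b had a mid-G1 strength of 2.97 and 3.35. The boundary between Arf6, a small GTPase gene, and Nemf, a gene of ribosome quality control, at chr12:70460001-70470000, carried 6 CRE loops and was 372.5 kb from the nearest CTCF loop anchor. It was also among the 6 strongest, with 0.309, 0.837, 1.61 and 1.88 in -auxin and 0.287, 0.593, 1.11 and 1.25 in +auxin cells. Its mid-G1 change was -0.59, and the 30 bases with a CTCF core printed above lie in this bin. At chr17:56200001-56210000, over exons of Chaf1a, a histone chaperone gene, and Ubxn6, strength was 0.245, 0.503, 0.949 and 1.14 in -auxin and 0.164, 0.368, 0.714 and 0.725 in +auxin cells. Of its 6 loops 5 were called in +auxin maps only, among them 1 to Uhrf1, a gene of DNA methylation maintenance, with a mid-G1 loop strength of 0.802 in -auxin and 1.45 in +auxin cells. The loop called in -auxin maps only, of 1250 kb, had 2.57 and 1.96. At chr2:128930001-128940000, over exons of the RNA polymerase I gene Polr1b, strength was 0.0682, 0.373, 0.577 and 0.704 in -auxin and 0.0861, 0.320, 0.533 and 0.553 in +auxin cells. At chr2:168800001-168810000, which overlaps no protein-coding gene and lies 17.5 kb from an anchor at Zfp64, it was 0.103, 0.133, 0.324 and 0.364 in -auxin and 0.0718, 0.166, 0.255 and 0.263 in +auxin cells. These last 2 were the weaker ones of the 5 in every G1 map.

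The next boundaries were chosen for the size of their mid-G1 change among the 286 with a mean strength of at least 0.2 over the 8 maps and the same sign of change at the 3 post-mitotic stages, of which 210 were weaker and 76 stronger, so their changes describe the choice. Those with the lowest changes formed mainly in -auxin cells. At the Olfr701 bin, chr7:113950001-113960000, in a cluster of olfactory receptor genes and over 200 kb from the nearest CTCF loop anchor, strength was 0.0297, 0.214, 0.604 and 0.602 in -auxin and 0.0795, 0.0608, 0.263 and 0.0522 in +auxin cells. At the Oas1e bin, chr5:121240001-121250000, it was 0.0663, 0.332, 0.501 and 0.683 in -auxin and 0.0441, 0.117, 0.0674 and 0.101 in +auxin cells. In +auxin mid-G1 cells the Olfr701 bin was below its prometaphase strength and the Oas1e bin above it, both near 0.1 or less. Another 2 of the 6 flank the same CRE loop on chromosome 2, between the starts of Eif6, a ribosome assembly factor gene, and Gdf5, a growth factor gene. On its left, at chr2:155630001-155640000 over exons of the metalloproteinase gene Mmp24, strength was 0.0615, 0.415, 0.859 and 1.01 in -auxin and 0.0675, 0.118, 0.208 and 0.187 in +auxin cells. On its right, at chr2:155790001-155800000 over exons of the centrosomal gene Cep250, it was 0.152, 0.254, 0.501 and 0.650 in -auxin and 0.0151, 0.0172, 0.0689 and 0.139 in +auxin cells. The loop of 120 kb between them was called in -auxin maps only and had a mid-G1 log2 change of -1.06, and the boundaries have a CTCF loop anchor at 27.5 and 30.0 kb. At chr4:107360001-107370000, near Dmrtb1, strength was 0.0467, 0.572, 0.890 and 1.13 in -auxin and 0.0497, 0.209, 0.241 and 0.238 in +auxin cells. At chr16:59650001-59660000, over exons of the ephrin receptor gene Epha6, it was 0.101, 0.502, 0.997 and 1.34 in -auxin and 0.129, 0.143, 0.313 and 0.335 in +auxin cells. In +auxin cells the Olfr701 bin was the only one of the 6 with a lower strength in mid-G1 than in prometaphase, and all 6 lie in cluster1. Of the 6 CRE loops at these boundaries 5 were weaker in mid-G1 +auxin cells, by a log2 change from -1.06 to -0.06, and 1 at the boundary near Dmrtb1 was stronger (0.47), where 46.6% of the 776 loops at CRE-anchor boundaries were weaker by any amount.

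Those with the highest changes formed in +auxin cells and stayed low in -auxin cells, and all 6 lie in cluster4. At chr8:88090001-88100000, near the start of the co-chaperone gene Dnaja2 and under 3 structural loops, strength was 0.0516, 0.0469, 0.0212 and 0.0343 in -auxin and 0.0535, 0.305, 0.579 and 0.620 in +auxin cells. At chr18:61550001-61560000, over exons of Ppargc1b, a coactivator gene of mitochondrial metabolism, it was 0.0995, 0.0795, 0.142 and 0.0611 in -auxin and 0.0675, 0.226, 0.641 and 0.454 in +auxin cells. In both, no -auxin map reached 0.15. The Gm16532 bin, chr7:6350001-6360000, lies among zinc finger genes, and its strength was 0.164, 0.111, 0.168 and 0.0892 in -auxin and 0.187, 0.360, 0.465 and 0.484 in +auxin cells. At chr3:89810001-89820000, over exons of Ubap2l, strength was 0.149, 0.215, 0.255 and 0.229 in -auxin and 0.221, 0.491, 0.936 and 1.01 in +auxin cells. This was the only one of the 6 to reach 1 in +auxin cells, and both of its CRE loops, which end at the start of Hax1, were called in +auxin maps only. At chr4:11870001-11880000, near Pdp1, a pyruvate dehydrogenase phosphatase gene, strength was 0.0559, 0.177, 0.209 and 0.121 in -auxin and 0.0986, 0.354, 0.483 and 0.444 in +auxin cells. At chr10:42240001-42250000, over exons of the sorting nexin gene Snx3 and under 3 structural loops, it was 0.109, 0.0750, 0.191 and 0.166 in -auxin and 0.241, 0.277, 0.620 and 0.584 in +auxin cells. Spanning structural loops numbered 2 at the Gm16532 bin, 1 near Pdp1, and 0 at both Ppargc1b and Ubap2l. The CRE loop of 230 kb that joins Snx3 and Foxo3 was called in both treatments and had a mid-G1 strength of 1.04 in -auxin and 2.39 in +auxin cells. Of the 11 CRE loops at these 6 boundaries 8 were stronger in mid-G1 +auxin cells and 3 weaker, counts too small to set against the 46.6% of weaker loops among all 776. The weaker loops were 2 at the Gm16532 bin, with mid-G1 strengths of 5.46 and 2.90 in -auxin and 2.73 and 1.71 in +auxin cells, and 1 at Ppargc1b, with 0.684 and 0.488.

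**Figure D5:**
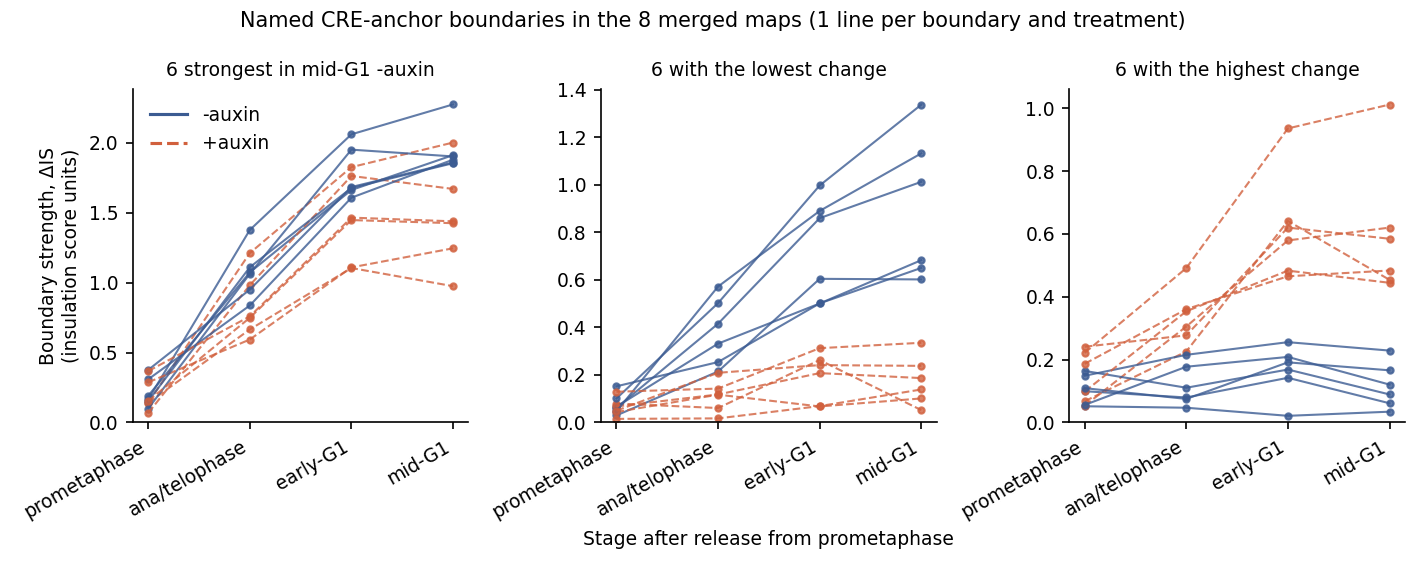
Strength (ΔIS, in units of the insulation score) in the 8 merged maps of the 6 CRE-anchor boundaries strongest in mid-G1 -auxin cells, the 6 with the lowest and the 6 with the highest mid-G1 change; each line is 1 boundary in 1 treatment, solid for -auxin and dashed for +auxin, and the vertical axes differ between panels. The strongest 6 were rebuilt in both treatments (at least 0.975 in mid-G1 +auxin cells), while in the other sets 1 treatment lay well above the other in mid-G1.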

How the data were processed

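In situ Hi-C reads were processed by the authors with HiC-Pro 2.10.0 and bowtie2 on mm9, and the replicates of each condition were merged. Boundaries were called with rGMAP 1.4, and boundaries of -auxin cells were moved to the lowest insulation score of mid-G1 nearby. Boundary strength, as deposited, is a signal read from balanced 10 kb maps. For loops (modified HICCUPS, juicer_tools) the authors deposited a ratio, observed contacts over those of a local donut, averaged over 9 pixels. Loop categories and boundary clusters are the authors' labels. The tables used here hold 1 value per condition, so the precision of a value and its spread between cultures are not given here.

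Each change is the log2 of +auxin over -auxin strength, with nothing added to either value. No member value was 0, and 1 boundary outside the members has no mid-G1 ratio. Gene models were GENCODE vM1 and sequence NCBIM37, which is mm9, and all coordinates lay within its chromosome lengths. Named boundaries are the 6 strongest, the 6 lowest and 6 highest changes (mean strength at least 0.2, same sign at 3 stages), and the 5 with most CRE loops. Members, gene list and rules were chosen with earlier results of these data known. The classification was tested on simulated data. Python 3.11.15, numpy 2.4.6, pandas 2.3.3, scipy 1.17.1 and matplotlib 3.10.9 were used.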

Additional observations from a re-analysis of the deposited data

How the results depend on the processing

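Of 156 values from alternative settings, 127 stayed within 1 SD, the interval or 1.5 times of the reported value, 25 lay further off and 4 changed sign. None of them lay further off with loops of 10 kb summits only, without boundaries near an uncategorised anchor, without chromosome 3, or with the median recovery of single boundaries. Leaving out cluster5, which gave 15 of the 127 values, removes no CRE-anchor boundary and so tests nothing. With a 10 kb window the early-G1 and mid-G1 medians were -0.19 and -0.31, the share at least 1.5-fold weaker in mid-G1 was 30.3%, clusters 1, 2 and 3 held 9.64%, 37.7% and 43.0%, and 33.3% of bins held a transcription start. With a 40 kb window these values were -0.043, -0.14, 17.5%, 4.23%, 26.9%, 57.1% and 17.3%. Anchors of CRE loops called in -auxin maps only left 257 boundaries, 8.17% of them at least 1.5-fold stronger. Centring on the median of all boundaries turned the ana/telophase, early-G1 and mid-G1 medians to 0.15, 0.25 and 0.29. Relative to that median, 8.39% were weaker and 25.6% stronger in mid-G1. A pseudocount of 0.1 gave 18.1% and 8.16%, 2-fold gave 9.30% and 5.22%, and a mean strength of at least 0.2 gave 8.27% stronger. Excluding boundaries with a CTCF loop anchor within 50 kb, chosen after seeing the data, left 269, with medians of -0.082 in ana/telophase and 0.032 in early-G1 and 14.1% weaker. Starts within 20 kb were at 81.4%, starts of any gene type in 36.1% of bins, and the looser motif in 9.07%. Of 44 values of the 22 named boundaries, 28 lay further off, and the pseudocount gave -2.21 in place of -3.53 at Olfr701 and 2.42 in place of 4.17 near Dnaja2. Centring turned the sign of 6, those at Ndufb5 (0.30), Sec23ip (0.29), Tex14 (0.11), Acsl4 (0.10), Polr1b (0.13) and Zfp64 (0.011). The cause of these shifts was not tested, apart from the fewer boundaries that stricter rules leave. No paired analysis was possible because the tables used here hold values of merged replicates, so no replicate could be left out either. Maps of single replicates were not analysed here. What depth limits cannot be stated from these tables.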
